A study of Mus musculus with 6 samples.

Results

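The Krüppel-like factor (KLF) genes other than Klf2 were examined in mouse regulatory T (Treg) cells made in culture with or without sorafenib (Sora), a kinase inhibitor given for liver cancer. The members were 9 genes (Klf3, Klf4, Klf6, Klf7, Klf9, Klf10, Klf11, Klf12 and Klf13) of 22939 gene symbols, taken as the rows of the tables of counts and of FPKM (counts per gene length and library total) that carry these symbols. RNA was sequenced from 3 control (ctrl-Treg) and 3 Sora-Treg libraries. Per the methods of the study, both groups began as naive CD4+ T cells of spleen and lymph nodes from mice of the C57BL/6J strain with a Foxp3GFP knock-in allele. Both received anti-CD3 and anti-CD28, TGF-β1 and antibodies against IFN-γ and IL4, and both were sorted for GFP, which is made from the Foxp3 locus. The groups are labelled as differing only in the addition of Sora, whose dose for these libraries, the day of harvest and the age of the Foxp3GFP mice are not given in the sources used here.

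KLF proteins are transcription factors that bind GC-rich and CACCC-type sites through zinc fingers at their carboxyl end, and Sp factors bind similar sites. They differ in the amino-terminal part, which recruits partner proteins. Klf3, Klf8 and Klf12 bind the corepressor CtBP. Klf2, Klf4, Klf6 and Klf7 act largely as activators and bind histone acetyltransferases. Klf9, Klf10, Klf11, Klf13 and Klf16 bind the corepressor Sin3. In T cells the family, Klf2 and Klf4 above all, is best known for holding naive cells in quiescence, and Klf10, which TGF-β induces, is known from Treg cells.

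Promoter sequences are shown for Klf4 and Klf6, which had the largest rises among the members, and for Klf3, which had the largest fall. Each runs from 250 bases before to 50 bases after the RefSeq start of the gene on GRCm38.p6, 5′ to 3′ on the strand of the gene. Capitals mark the GC box GGGCGG, the CACCC box and the core ACGTG of hypoxia response elements on either strand, and neighbouring matches can run together. The windows lie at chr4:55532426-55532725 (minus strand) for Klf4, chr13:5861239-5861538 (plus strand) for Klf6 and chr5:64803271-64803570 (plus strand) for Klf3.
Klf4: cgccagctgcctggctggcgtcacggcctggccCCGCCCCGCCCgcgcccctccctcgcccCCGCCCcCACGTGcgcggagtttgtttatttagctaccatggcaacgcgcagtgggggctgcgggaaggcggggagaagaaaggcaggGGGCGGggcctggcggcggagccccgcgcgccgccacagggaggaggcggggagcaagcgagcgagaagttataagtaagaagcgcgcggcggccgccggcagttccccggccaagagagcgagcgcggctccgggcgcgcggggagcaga
Klf6: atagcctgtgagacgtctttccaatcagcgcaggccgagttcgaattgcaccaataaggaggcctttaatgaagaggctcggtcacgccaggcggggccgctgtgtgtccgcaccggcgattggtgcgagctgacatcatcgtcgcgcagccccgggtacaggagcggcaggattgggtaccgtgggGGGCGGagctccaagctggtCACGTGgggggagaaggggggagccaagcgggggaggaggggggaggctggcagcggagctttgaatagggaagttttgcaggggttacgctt
Klf3: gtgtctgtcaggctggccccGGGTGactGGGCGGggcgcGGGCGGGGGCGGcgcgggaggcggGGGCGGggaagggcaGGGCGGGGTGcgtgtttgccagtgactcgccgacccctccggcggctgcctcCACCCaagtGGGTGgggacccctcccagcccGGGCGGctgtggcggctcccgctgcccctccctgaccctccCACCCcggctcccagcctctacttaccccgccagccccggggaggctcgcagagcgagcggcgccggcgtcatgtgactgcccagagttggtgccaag

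The Klf4 window held 4 GC boxes, that of Klf6 held 1 and that of Klf3 held 6. The CACCC box had 5 matches in the Klf3 window and 0 in those of Klf4 and Klf6. The palindrome CACGTG, an E-box that holds ACGTG on both strands, was found once each in the Klf4, Klf6 and Klf11 windows and in no other of the 8 members found in the promoter table (all but Klf10). Over all 32851 promoters of the table, 7.15% held CACGTG, 19.6% held ACGTG, 35.7% held GGGCGG and 57.5% held CACCC. Among the 8 members, 4 held ACGTG, 6 held GGGCGG and 5 held CACCC. The motifs were chosen after the expression values had been seen. Of the others searched on both strands, the AP-1 site TGANTCA and the FOXO core TGTTTAC each matched only Klf9 (7.81% and 3.65% of all promoters), and the TATA box TATAAA matched only Klf12 (13.6%). The Klf12 window (chr14:100149747-100150046, minus strand, 45.7% GC) lies well inside the gene, far from its GENCODE start at 100284679. TGACGT, the core of the cAMP response element, matched Klf9 and Klf13 (7.51%). The full element TGACGTCA (1.79%), the SMAD palindrome GTCTAGAC (0.213%), the ETS core CCGGAAG (8.86%) and the CArG box (1.63%) matched no member.

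Library totals ranged from 30727686 to 37717324 counts, at which a floor of 3 counts corresponds to 0.0795 to 0.0976 CPM (counts scaled to a common library size by trimmed means, TMM), for counting error only. Libraries of a group differed by more than sampling noise (chi-square per degree of freedom 3.48 to 6.23). Whether replicates came from separate cultures or mice is not stated, so p-values measure the spread between these samples, which may be technical. All 9 listed Treg and T cell markers were detected, with a summed level of 4303 to 4351 CPM in ctrl-Treg and 7568 to 7677 CPM in Sora-Treg cells, and Foxp3 was at 259 ± 8.99 and 272 ± 4.75 CPM (SD, n = 3). Of these markers 8 rose, 0 fell and 1 was not called. Much of the gain in the sum came from Il2ra (means 1934 and 3795 CPM) and Ctla4 (383 and 1108 CPM). Cd4 (679 and 709 CPM) and Ikzf2 (147 and 149 CPM) hardly moved, and Foxp3 and Cd4 changed sign with library totals alone. Markers of myeloid cells, which also use Klf4, summed to 249, 257 and 171 CPM in ctrl-Treg libraries and to 169, 200.3 and 169 CPM in Sora-Treg libraries. Of 14 listed myeloid markers 13 were tested, 1 rose and 6 fell, and Lyz2, a lysozyme gene, was at 47.5, 47.9 and 12.6 CPM against 5.64, 21.2 and 4.66 CPM. Of those that fell, Csf1r, Itgam and Adgre1 changed sign with control replicate 3 as the only control, while Cebpb kept its call in all 18 alternatives. The marker that rose was Ccr2. Ctss, the largest part of these sums, had means of 106 and 101 CPM and was not called. B cell markers summed to 9.71 to 10.7 against 6.09 to 7.68 CPM (4 of 4 tested fell), CD8 T and NK cell markers to 16.2 to 18.04 against 22.5 to 24.5 CPM (2 of 4 tested rose, 1 fell) and erythroid and platelet markers to at most 0.432 CPM (0 of 6 tested). Of the CD8 T and NK cell markers, Klrc1 (means 0.738 and 5.55 CPM) and Eomes (2.21 and 4.53 CPM) rose. Cd8a fell (2.65 and 1.62 CPM), Cd8b1 was not called, and Klrb1c and Klra7 had at most 1 count in any library. No listed marker was at 0 in all libraries, and the part of these cells in the changes of the members was not tested. In RNA of pooled cells, fewer cells that use a gene and less RNA per cell cannot be told apart.

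To ask how the family responded to Sora, the members were read from a fit over all 13463 tested genes. Klf4, Klf6, Klf7, Klf11 and Klf13 rose in Sora-Treg cells, Klf3 and Klf10 fell, and Klf9 and Klf12 did not pass the test (edgeR, adjusted p under 0.05). All 9 passed the filter on low counts. Thus 5 of 9 members were called higher and 2 lower, where 29.7% of tested genes were called higher and 29.9% lower. Past 2-fold, Klf4 and Klf6 were higher and 0 members lower, against 6.3% and 4.97% of tested genes. The libraries of both groups did not overlap for 7 members, a property shared by 63.7% of tested genes. The median log2 fold change of the members was 0.22, beside -0.0035 for all tested genes.

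**Figure D1:**
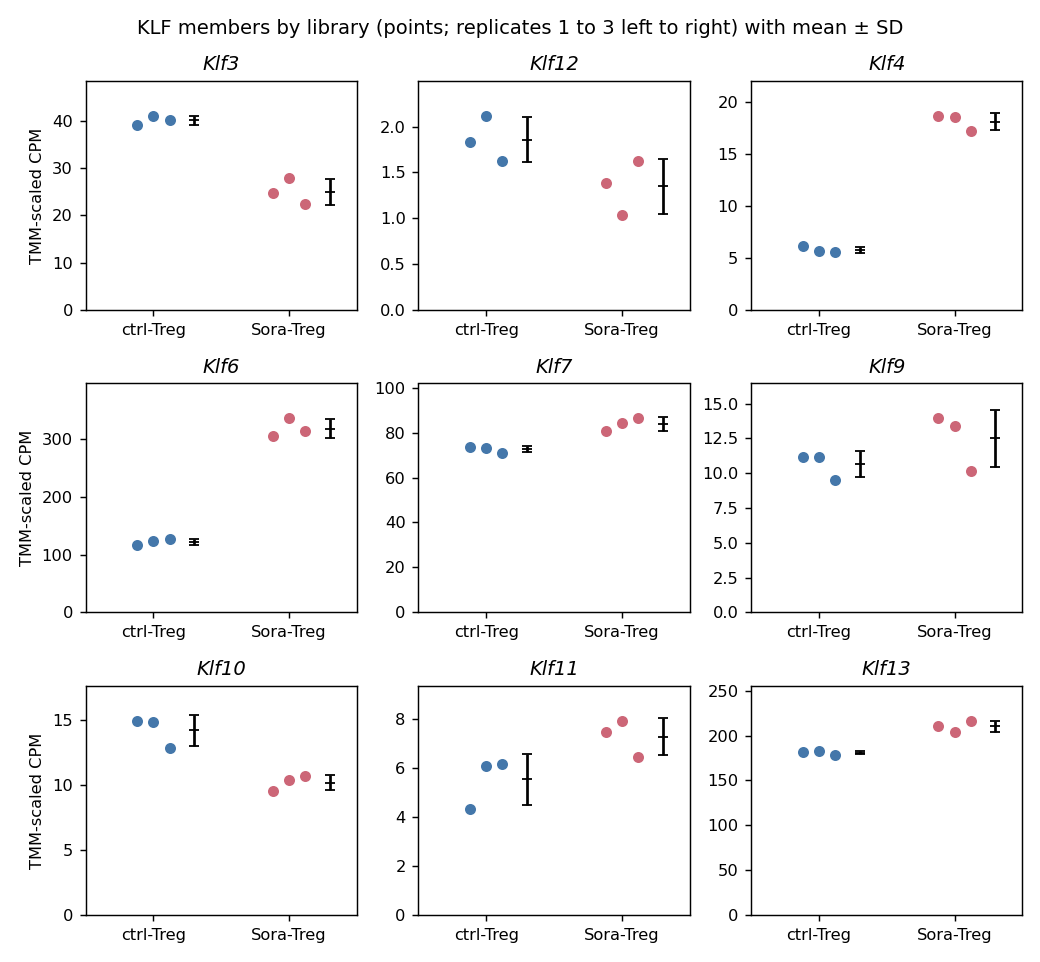
TMM-scaled CPM (y axis, from 0, a separate scale in each panel) of the 9 members in the 3 ctrl-Treg libraries (blue points) and 3 Sora-Treg libraries (red points), with the mean and SD of each group in black. The groups are widely apart for Klf3, Klf4 and Klf6, and the libraries overlap for Klf9 and Klf12.

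Among the members that bind acetyltransferases, Klf6 and Klf4 gave the largest changes of the 9. Klf6 (GRCm38 chromosome 13, 5861482 to 5870394, plus strand) is a broadly expressed factor also described as a tumour suppressor. Its level was 116, 124 and 127 CPM in ctrl-Treg libraries and 304, 335 and 313 CPM in Sora-Treg libraries. Every Sora-Treg library thus lay far above every ctrl-Treg library. Klf6 rose from 122 ± 5.28 to 318 ± 15.9 CPM (SD, n = 3), which is 2.60-fold, with a log2 fold change of 1.38 ± 0.04 (edgeR SE, adjusted p = 9.01e-19). The 95% interval ran from 1.30 to 1.46.

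Klf4 (chromosome 4, 55527143 to 55532466, minus strand) slows proliferation in T cells and is one of the factors used to reprogram cells to pluripotency. It stood at 6.12, 5.63 and 5.54 CPM in ctrl-Treg cells and at 18.7, 18.5 and 17.2 CPM in Sora-Treg cells. The groups were again widely separated, at a level far below that of Klf6. Klf4 rose from 5.77 ± 0.311 to 18.1 ± 0.828 CPM (SD, n = 3), a 3.13-fold rise and a log2 fold change of 1.65 ± 0.09 (edgeR SE, adjusted p = 4.35e-13, interval 1.46 to 1.84). With control replicate 3, the ctrl-Treg library lowest in Lyz2, as the only control, the change was 1.71 for Klf4 (edgeR adjusted p = 3.17e-09) and 1.33 for Klf6. On the log2(FPKM + 1) scale, which compresses changes of low genes, the change of Klf4 was 0.88 (limma adjusted p = 1.16e-06).

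Klf7 (chromosome 1, 64029447 to 64122282, minus strand), known mostly from neurons and from leukaemia cells, moved little. The ctrl-Treg libraries held 73.5, 73.0 and 71.0 CPM and Sora-Treg libraries 80.5, 84.4 and 86.3 CPM. The groups did not overlap, and the gap between them was small. Klf7 rose 1.16-fold, from 72.5 ± 1.31 to 83.7 ± 2.95 CPM (SD, n = 3), with a log2 change of 0.21 ± 0.04 (edgeR SE, adjusted p = 0.000104, interval 0.13 to 0.29). The change shrank to 0.09 with libraries scaled by their totals (edgeR adjusted p = 0.0470) and the call was lost on the FPKM scale (0.08 on log2(FPKM + 1), limma adjusted p = 0.0999). Of its exons, 3196 bases lie opposite the noncoding gene Gm26649, which is not a row of the table, so reads of that gene cannot be told apart if strand was not used.

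Of the members that bind CtBP, Klf3 fell and Klf12 did not pass the test. Klf3 (chromosome 5, 64803388 to 64832901, plus strand) is a repressor that acts in B cells, red cells and fat. It was measured at 39.1, 41.0 and 40.2 CPM in ctrl-Treg libraries against 24.7, 27.9 and 22.4 CPM in Sora-Treg libraries. All 3 Sora-Treg libraries were below all 3 ctrl-Treg libraries. Klf3 fell from 40.1 ± 0.959 to 25.0 ± 2.75 CPM (SD, n = 3), which is 1.60-fold lower, with a log2 fold change of -0.68 ± 0.07 (edgeR SE, adjusted p = 6.63e-09, interval -0.82 to -0.54). This call held in all 18 alternatives, between -0.80 and -0.60. An exonic stretch of 404 bases lies opposite Gm20033, which is no row of the table.

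Klf12 (chromosome 14, 99870632 to 100284679, minus strand), a repressor of the AP-2α gene, was the least expressed member. Its counts were 72, 77 and 52 in ctrl-Treg libraries and 42, 33 and 58 in Sora-Treg libraries, or 1.83, 2.12 and 1.63 CPM against 1.38, 1.04 and 1.63 CPM. The highest Sora-Treg library reached the lowest ctrl-Treg library. The means were 1.86 ± 0.245 and 1.35 ± 0.299 CPM (SD, n = 3), and the log2 fold change of -0.46 ± 0.27 (edgeR SE, adjusted p = 0.144) had an interval from -1.01 to 0.09. At this depth neither a decrease to the lower bound nor the absence of a change could be distinguished.

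The third CtBP-binding gene, Klf8, is no member but went the other way. Its counts of 87, 73 and 40 in ctrl-Treg and 86, 194 and 126 in Sora-Treg libraries correspond to 2.21, 2.01 and 1.25 CPM against 2.83, 6.09 and 3.54 CPM. It rose by 1.17 ± 0.26 on the log2 scale (edgeR SE, adjusted p = 0.000398), with 0.80 when sorafenib replicate 2, its highest library, was left out, and 0.25 without a call on log2(FPKM + 1) with no filter (limma adjusted p = 0.104).

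The members that bind Sin3 moved in both directions, none of them past 2-fold. Klf10 (chromosome 15, 38291463 to 38300706, minus strand), also called TGF-β-inducible early gene 1, is the member most closely tied to TGF-β and to Treg cells. Its ctrl-Treg values were 14.9, 14.8 and 12.8 CPM and its Sora-Treg values were 9.52, 10.4 and 10.6 CPM. The lowest ctrl-Treg library remained above the highest Sora-Treg library. Klf10 fell 1.39-fold, from 14.2 ± 1.19 to 10.2 ± 0.582 CPM (SD, n = 3), with a log2 change of -0.48 ± 0.09 (edgeR SE, adjusted p = 9.87e-05, interval -0.67 to -0.29). With control replicate 3 as the only control, the change kept its direction at -0.33 but was no longer called. That fit called fewer genes in both directions, and the part of Lyz2-rich cells in the change was not tested.

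Klf11 (chromosome 12, 24651274 to 24662789, plus strand), its closest relative and likewise TGF-β-inducible, was higher. Its values were 4.32, 6.07 and 6.17 CPM in ctrl-Treg cells and 7.45, 7.91 and 6.43 CPM in Sora-Treg cells. The groups did not overlap, with control replicate 1 low and sorafenib replicate 3 close to the remaining controls. Klf11 rose 1.32-fold, from 5.52 ± 1.04 to 7.26 ± 0.753 CPM (SD, n = 3), with a log2 change of 0.40 ± 0.14 (edgeR SE, adjusted p = 0.0179, interval 0.11 to 0.69). This call was lost in 7 of 18 alternatives, among them leaving out control replicate 1 (0.25, edgeR adjusted p = 0.139) or sorafenib replicate 2 (0.34, adjusted p = 0.0632) and scaling by library totals (0.28, adjusted p = 0.0810).

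Klf13 (chromosome 7, 63886351 to 63938915, minus strand), known in T cells as an activator of the chemokine gene Ccl5, was the member with the most counts in ctrl-Treg cells. Its libraries were tight, at 181, 183 and 179 CPM for ctrl-Treg and 211, 204 and 216 CPM for Sora-Treg cells. The Sora-Treg libraries were all higher. Klf13 rose 1.16-fold, from 181 ± 1.90 to 210.3 ± 6.35 CPM (SD, n = 3), with a log2 change of 0.22 ± 0.03 (edgeR SE, adjusted p = 2.74e-06, interval 0.15 to 0.28). The rise was called in all 18 alternatives, but was 0.10 with library totals alone (edgeR adjusted p = 0.00702). Ccl5 moved the opposite way, from 15.0 ± 2.81 to 2.43 ± 1.42 CPM (SD, n = 3), with a log2 change of -2.63 ± 0.21 (edgeR SE, adjusted p = 3.11e-10).

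Klf9 (chromosome 19, 23141226 to 23168134, plus strand), a target of glucocorticoid and thyroid hormone receptors, did not pass the test. Its libraries held 11.2, 11.2 and 9.55 CPM in the ctrl-Treg group and 13.9, 13.4 and 10.2 CPM in the Sora-Treg group. Sorafenib replicates 1 and 2 were above every control, and sorafenib replicate 3 was inside the range of the controls. The means were 10.6 ± 0.940 and 12.5 ± 2.05 CPM (SD, n = 3), and the log2 fold change was 0.23 ± 0.11 (edgeR SE, adjusted p = 0.0805, interval -0.0010 to 0.46). Without sorafenib replicate 3 the change was 0.36 and was called (edgeR adjusted p = 0.00549), and with the replicate number as a block it was 0.23 and was also called (edgeR adjusted p = 0.0383).

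**Figure D2:**
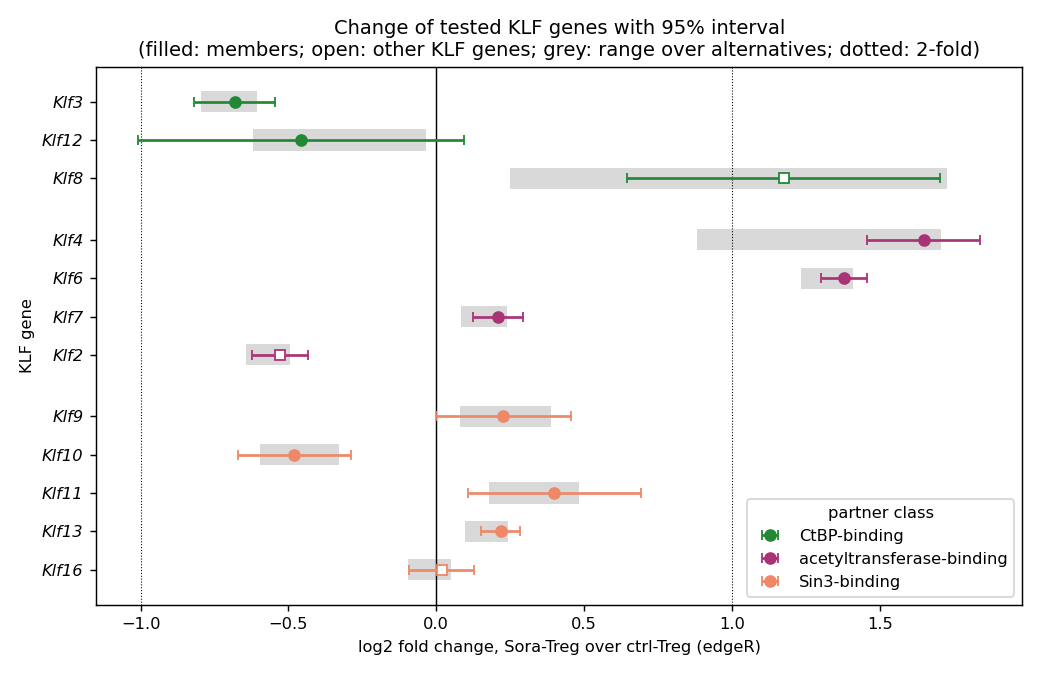
Log2 fold change of Sora-Treg over ctrl-Treg cells (x axis) for the 9 members (filled circles) and the tested KLF genes outside them (open squares), with 95% intervals as bars and the range over all alternatives in grey, coloured by partner class. Klf4, Klf6 and Klf8 lie beyond 2-fold (dotted line), Klf3, Klf10 and Klf2 lie below 0 with their intervals, and the intervals of Klf9, Klf12 and Klf16 cross 0.

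Within each partner class the genes differed in direction or call. Of the 3 acetyltransferase-binding members all rose, while Klf2 of the same class fell from 73.2 ± 1.04 to 50.8 ± 3.13 CPM (SD, n = 3), with a log2 change of -0.53 ± 0.05 (edgeR SE, adjusted p = 1.03e-09). Of the 4 Sin3-binding members 2 rose, 1 fell and 1 was not called, and Klf16 was at 36.2 ± 0.534 and 36.7 ± 1.52 CPM (SD, n = 3), with a log2 change of 0.02 that turned to -0.10 with library totals alone (edgeR adjusted p = 0.784 and 0.116). Of the 2 CtBP-binding members 1 fell and 1 was not called. Classes were not compared by a test.

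Ratios of counts within a library do not depend on scaling, and 4 pairs within the classes were compared after the values had been seen. Klf6 had 1.59, 1.70 and 1.78 times the counts of Klf7 in ctrl-Treg libraries and 3.78, 3.97 and 3.63 times in Sora-Treg libraries. The ratio therefore moved by 1.17 on the log2 scale without overlap. Klf10 had 3.45, 2.44 and 2.08 times the counts of Klf11 in ctrl-Treg and 1.28, 1.31 and 1.66 times in Sora-Treg libraries, a difference of -0.89. The TGF-β-inducible pair thus came closer to equal counts in every Sora-Treg library. For both pairs the exact two-sided permutation p was 0.1 (0.2 adjusted over 4 pairs), the smallest that 3 against 3 can give. The ratio of Klf9 to Klf13 differed by 0.01 (exact p = 1) and that of Klf3 to Klf12 by -0.21 (exact p = 0.6, 0.8 adjusted), and the libraries of both groups overlapped for these pairs.

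Levels were compared between genes per length, as FPKM. In ctrl-Treg cells Klf6 (30.2 ± 1.22 FPKM) and Klf13 (29.4 ± 0.316 FPKM) were highest (SD, n = 3), and their libraries overlapped. Klf7 (9.21 ± 0.181), Klf3 (7.92 ± 0.165), Klf10 (3.67 ± 0.312), Klf9 (2.47 ± 0.220), Klf11 (1.44 ± 0.268), Klf4 (0.794 ± 0.0453) and Klf12 (0.0747 ± 0.00975 FPKM) followed (SD, n = 3), each below its neighbour in every library. In Sora-Treg cells Klf6 stood alone at 72.4 ± 3.50 FPKM, above Klf13 at 31.6 ± 0.971, Klf7 at 9.82 ± 0.331 and Klf3 at 4.57 ± 0.498 FPKM (SD, n = 3). Below them Klf9 (2.68 ± 0.440), Klf10 (2.43 ± 0.136) and Klf4 (2.30 ± 0.107 FPKM) overlapped and had no fixed order, and Klf11 was at 1.75 ± 0.181 FPKM (SD, n = 3). Klf4 thus overlapped Klf10 in Sora-Treg cells, while in ctrl-Treg cells it was the lowest member but Klf12. The gene lengths implied by the FPKM values were 7553 bases for Klf4 and 25860 bases for Klf12, beyond the exons of the GENCODE annotation (3049 and 6985 bases), and 5267 bases for Klf3 against 11243 bases, so the places of these genes in the order depend on the length used. The length of Klf4 also exceeds its whole GENCODE locus of 5324 bases. The lengths thus came from another gene model than the coordinates and exon overlaps given here, and whether the counts used that model is not known.

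The make-up of the family changed with the rise of Klf6. As a share of the FPKM summed over 17 KLF genes, Klf6 held 20.4%, 21.4% and 22.0% in ctrl-Treg libraries and 41.4%, 44.7% and 42.8% in Sora-Treg libraries. Klf2, the largest part in ctrl-Treg cells at 29.6% ± 0.591, held 16.0% ± 1.09 in Sora-Treg cells (SD, n = 3). Klf13 was at 20.8% ± 0.231 and 18.8% ± 0.805 and Klf3 at 5.59% ± 0.0955 and 2.71% ± 0.262 (SD, n = 3). A share can decrease while its gene rises, as it did for Klf13. Klf4 was a minor part throughout, at 0.560% ± 0.0336 and 1.37% ± 0.0538 (SD, n = 3). The summed level was 141 to 142 FPKM in ctrl-Treg and 167 to 171 FPKM in Sora-Treg libraries. Shares of summed counts put Klf13 first in ctrl-Treg cells (32.0%) and Klf6 first in Sora-Treg cells (40.8%).

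**Figure D3:**
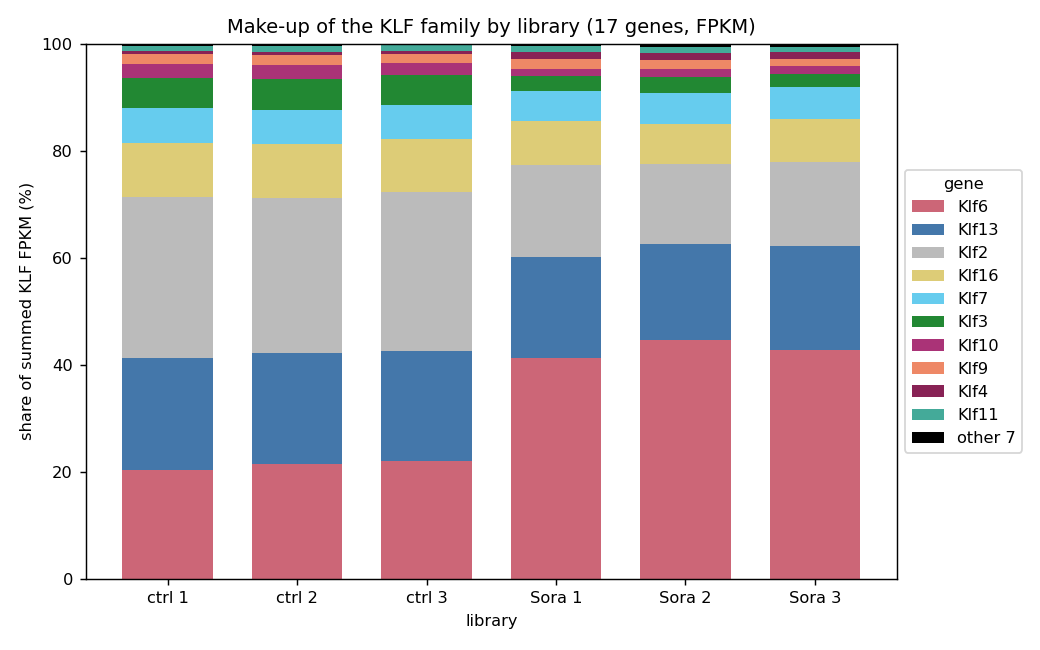
Share of the summed KLF FPKM (y axis, percent, 17 genes) held by each gene in each of the 6 libraries, as stacked bars. Klf6 grows from 20.4% to 22.0% in ctrl-Treg libraries to 41.4% to 44.7% in Sora-Treg libraries, and Klf2 shrinks.

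The remaining KLF genes were near the floor. Klf1 had 6 to 16 counts per library and Klf5 had 0 to 8, and Klf14, Klf15 and Klf17 had at most 3 counts, all below the filter. Of the Sp factors, which share the GC boxes, 1 of 5 tested rose and 4 fell, with a median log2 fold change of -0.15. Levels of the genes outside the members are given as mean ± SD over 3 libraries and log2 fold changes ± SE. Sp4 rose from 39.8 ± 1.54 to 50.3 ± 4.15 CPM (log2 fold change 0.34 ± 0.06, edgeR adjusted p = 1.71e-05). Sp6 fell from 9.82 ± 0.396 to 4.87 ± 0.706 CPM (-1.01 ± 0.12, edgeR adjusted p = 1.64e-07). The abundant Sp1 and Sp3 moved by -0.15 ± 0.04 and -0.09 ± 0.04 (edgeR adjusted p = 0.00444 and 0.0454) and Sp2 by -0.15 ± 0.06 (edgeR adjusted p = 0.0422), and the calls of Sp3, Sp2, Sp1 and Sp4 were lost in 9, 5, 2 and 1 of 18 alternatives. Sp5, Sp7, Sp8 and Sp9 had at most 8 counts in any library.

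Genes around the family were read from lists by the counts of called members and the median. Beside these counts, 29.7% of all tested genes were called higher and 29.9% lower, with a median of -0.0035. Of 17 corepressor and coactivator genes, 7 rose, 5 fell and 5 were not called, with a median of 0.04 that was -0.08 with library totals alone (4 higher, 7 lower). Sap30, a subunit of the Sin3 complex, rose from 26.3 ± 0.960 to 38.6 ± 1.93 CPM (0.55 ± 0.06, edgeR adjusted p = 2.32e-08). The acetyltransferase gene Ep300 rose from 170 ± 1.76 to 240 ± 4.73 CPM (0.50 ± 0.03, edgeR adjusted p = 1.78e-12). Kat2a, also an acetyltransferase gene, fell by 0.43 ± 0.05 and the histone-binding subunit gene Rbbp7 by 0.28 ± 0.04 on the log2 scale (edgeR SE, adjusted p = 3.58e-08 and 4.32e-07). Ctbp1 moved by 0.10 ± 0.03 (below 0 with library totals alone) and Sin3a by -0.15 ± 0.03 (edgeR adjusted p = 0.00853 and 0.000542), and Ctbp2 at 6 to 24 counts was not called (0.61 ± 0.47, edgeR adjusted p = 0.271).

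Because Klf10 and Klf11 respond to TGF-β, 15 early TGF-β response genes were read beside them. They split into 7 higher and 8 lower, with a median of -0.24 (4 and 8, median -0.36, with library totals alone). Id2, an inhibitor of E proteins, rose from 69.6 ± 2.77 to 158 ± 6.09 CPM (1.19 ± 0.04, edgeR adjusted p = 3.07e-17), and Bambi, which encodes a decoy receptor for TGF-β family ligands, rose from 8.62 ± 0.607 to 15.9 ± 0.966 CPM (0.88 ± 0.09, edgeR adjusted p = 1.68e-08). The Id2 relative Id3 fell from 15.7 ± 0.886 to 4.86 ± 0.706 CPM (-1.69 ± 0.11, edgeR adjusted p = 5.04e-12). Smad6, an inhibitory SMAD gene, moved by -1.83 ± 0.48 (edgeR adjusted p = 0.00212) on 5 to 28 counts, a call lost with control replicate 3 as the only control.

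Several members are quick responders to stimulation, and 21 immediate early genes gave 10 higher, 10 lower and a median of 0.02 (-0.09 with library totals alone). The AP-1 gene Fosl2 rose from 141 ± 2.50 to 401 ± 3.91 CPM (1.51 ± 0.03, edgeR adjusted p = 1.48e-21) and Zfp36, which speeds mRNA decay, rose by 1.17 ± 0.04 (edgeR adjusted p = 4.04e-17). Egr3, a target of T cell receptor signals, fell from 81.3 ± 0.817 to 22.2 ± 1.25 CPM (-1.87 ± 0.05, edgeR adjusted p = 4.61e-19), and Fosl1 fell by 1.85 ± 0.16 on the log2 scale (edgeR SE, adjusted p = 1.24e-09). Of 10 glucocorticoid response genes, the setting in which Klf9 is best known, 9 were tested, 6 rose and 1 fell (4 and 1 with library totals alone), with a median of 0.18. Sgk1, a kinase gene, rose from 101 ± 2.50 to 462 ± 13.2 CPM (2.19 ± 0.03, edgeR adjusted p = 8.12e-24) and Irs2 rose by 0.73 ± 0.04 (edgeR adjusted p = 9.88e-14). Tsc22d3, which encodes the glucocorticoid-induced leucine zipper, fell by 0.45 ± 0.05 on the log2 scale (edgeR SE, adjusted p = 3.50e-08).

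Among 13 listed quiescence and trafficking genes, 8 rose and 3 fell, with a median of 0.13 (6 and 3, median 0.01, with library totals alone). The 8 include the transcription factor genes Foxo1 (0.23 ± 0.03), Foxp1 (0.13 ± 0.03) and Foxo3 (0.10 ± 0.03), with edgeR adjusted p = 8.77e-07, 0.00141 and 0.00965. Their direction and call held in 18, 14 and 10 of 18 alternatives, and Foxo3 was below 0 with library totals alone. The list was named for control by KLF factors, which was not tested for any of its genes. Il7r, the receptor chain for IL-7, rose from 59.5 ± 2.98 to 146 ± 9.75 CPM (1.30 ± 0.05, edgeR adjusted p = 1.19e-16), and the gut-homing integrin gene Itgb7 rose by 0.70 ± 0.03 (edgeR adjusted p = 4.83e-16). The chemokine receptor gene Cxcr3 fell from 12.4 ± 1.64 to 4.80 ± 1.04 CPM (-1.36 ± 0.14, edgeR adjusted p = 9.54e-09) and Slfn2, which keeps T cells quiescent, fell by 1.16 ± 0.04 on the log2 scale (edgeR SE, adjusted p = 8.46e-18). Of 14 reported KLF target genes 5 rose and 7 fell, with a median of -0.21 (4 and 7, median -0.33, with library totals alone). Lgals3, which encodes galectin-3, rose from 15.8 ± 1.45 to 87.8 ± 4.03 CPM (2.47 ± 0.06, edgeR adjusted p = 6.16e-20) and the cell cycle inhibitor gene Cdkn1b rose by 0.57 ± 0.05 (edgeR adjusted p = 3.00e-10). Ccnd1, which encodes cyclin D1, had 206, 213 and 146 counts in ctrl-Treg and 8, 19 and 11 counts in Sora-Treg libraries (-3.74 ± 0.26, edgeR adjusted p = 2.33e-11). Ccl5, given above with Klf13, was the next lowest of this list.

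**Figure D4:**
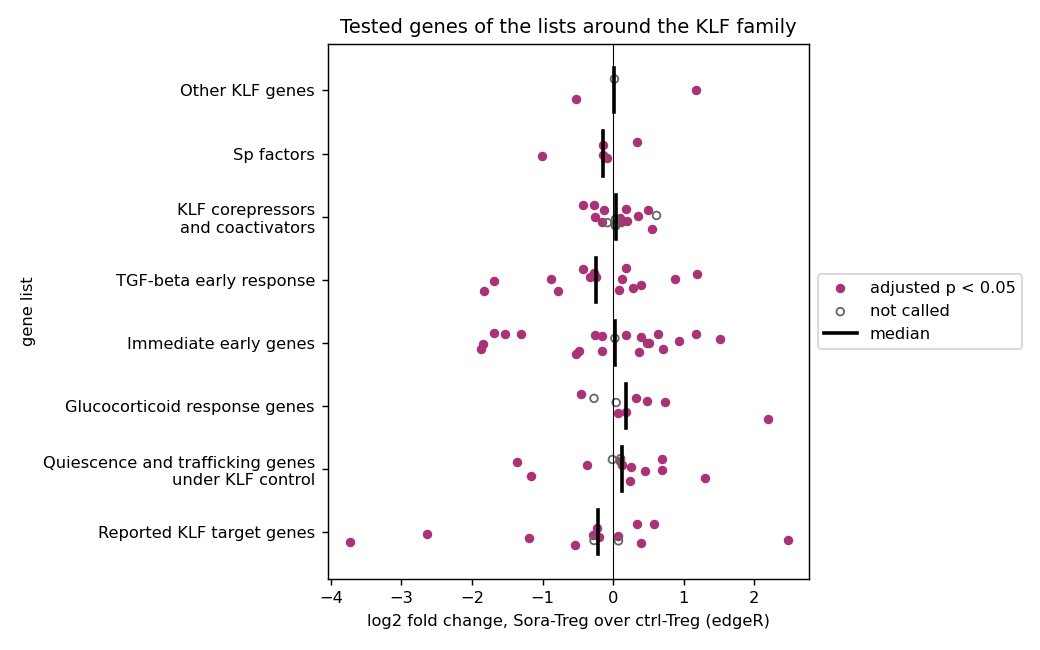
Log2 fold change (x axis) of the tested genes of 8 lists around the family (rows), filled where the edgeR adjusted p was under 0.05 and open otherwise, with the list median as a black bar. Points lie on both sides of 0 in every list, and the medians run from -0.24 to 0.18.

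The genes whose profile over the 6 libraries lay nearest to the member with the largest and the smallest change were found among 9160 candidates by the root mean square difference of centred log2 CPM. Nearest to Klf4 were Bcar1, an adaptor of integrin signaling (0.0483), and, slightly further, Tent5a, with log2 fold changes of 1.65 and 1.63. Nearest to Klf3 were Lrrc8b, a subunit gene of volume-regulated channels (0.0408), and Kdm1b, a histone demethylase gene (0.0501), with log2 fold changes of -0.73 and -0.67. For Klf6, looked up after its values had been seen, the nearest was Hif1a, the oxygen-regulated transcription factor (0.0230), with a log2 fold change of 1.39. With 6 libraries in 2 groups such likeness mostly says that the fold changes are of equal size.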

How the data were processed

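Libraries were grouped by the sample titles. Raw counts for each gene symbol were deposited, with FPKM values. The methods name an expectation-maximization algorithm for the deposited FPKM, whose values equalled each count over 1 gene length and the total of its library (largest relative difference 1.64e-06). The submitters' processing notes name fastp, HISAT2, HTSeq, DESeq2, R 3.2.0 and the build GRCm39, whereas the methods name Bowtie2 and GRCm38. Annotation release, strand setting and multi-mapped reads are not given in the sources used here, and the tables hold no coordinates. Gene coordinates are from GENCODE M21 and promoters from RefSeq, both on GRCm38. No 50-base window of a member's transcripts occurred in another KLF gene.

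Counts were tested with the quasi-likelihood test of edgeR 4.0.16 (R 4.3.3), with TMM scaling, filterByExpr, 13463 genes tested and Benjamini-Hochberg adjustment over all of them. SE is that implied by the F statistic. Alternatives were other scalings and filters, DESeq2 1.42.0, robust fitting, a replicate block, limma 3.58.1 on log2(FPKM + 1 or 0.1) for genes at 1 FPKM or more in at least 3 libraries or for all genes, each library left out, and control replicate 3 as the only control. Depth was 30727686 to 37717324 counts. The scripts were tested on simulated data. Members and lists were chosen with earlier results of these data known, and support nothing as independent evidence. Named genes were the members, other KLF and Sp genes, up to 2 called genes at each end of a list, and 2 nearest profiles of the members with the largest and smallest change. Ctbp1, Ctbp2, Sin3a, Foxo1, Foxp1, Foxo3, Hif1a and the cell type markers, Foxp3 and Lyz2 among them, were named after their values were seen. No protein sequence was used here, and 1 gene of the TGF-β list is not reported here and is left out of its counts and median.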

Additional observations from a re-analysis of the deposited data

How the results depend on the processing

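Klf3, Klf4, Klf6 and Klf13 kept their direction and their call in all 18 alternatives. The count of members called higher was 5 and became 3 with limma on log2(FPKM + 1), on log2(FPKM + 0.1) and on log2(FPKM + 1) with no filter, where Klf7 and Klf11 were not called. With limma on log2(FPKM + 1), 2357 of 10485 tested genes were called higher and 4876 lower. The count also fell where Klf11 alone lost its call, as with library totals alone and without control replicate 1 or sorafenib replicate 2. It grew where Klf9 was called, with a replicate block and without sorafenib replicate 3. The count called lower was 2 and became 1 with control replicate 3 as the only control, where Klf10 was not called and the lone control was assumed to vary like the other group. The count higher past 2-fold was 2 and became 1 with limma on log2(FPKM + 1), with or without the filter, a scale that compresses the low Klf4. Klf12 was below the filter of 2 of the FPKM fits and had no value there, and was -0.03 without a call in the fit with no filter.

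Klf16, which was not called, reversed from 0.02 to -0.0195 with upper quartile scaling, -0.10 with library totals alone, -0.0905 on log2(FPKM + 1) with or without the filter and -0.10 on log2(FPKM + 0.1), and lay between -0.0081 and 0.0492 over the fits that each left out 1 library. Library totals alone moved the median of all tested genes from -0.0035 to -0.12 and the calls from 3994 higher and 4028 lower to 2862 and 5614, so changes of about that size or less can change sign.

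Over all tested genes, same-numbered libraries did not deviate together (correlations -0.04, 0.06 and 0.03). Such correlations cannot show whether these libraries shared a mouse or culture, which is not stated. With a replicate block Klf9 was 0.23 (edgeR adjusted p = 0.0383) and was called, and no other member changed its call. Among the members, counting error was largest for Klf12 (33 to 77 counts) and Klf11 (170 to 252 counts), on top of the spread between libraries.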
